A study of Drosophila melanogaster with 40 samples.

Results

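The binding landscape of Capicua (Cic) in wild type Drosophila melanogaster embryos was described from chromatin immunoprecipitation and sequencing (ChIP-seq) of wild type embryos set against untagged embryos. Its members were all 468 intervals that the peak caller MACS2 called in wild type over untagged libraries, the 103 intervals that the authors kept and annotated to genes as their final list, and the 103 wild type signal profiles that belong to that list. The 6 ChIP libraries behind them were among 40 libraries of the series. Wild type embryos, with the genotype (+/+); (CicsfGFP/+), carried 1 copy of cic tagged with super-folder GFP at its own locus. OreR embryos, with the genotype (+/+), carried no tag, and their libraries measured what the GFP antibody (Millipore, AB3080) takes down by itself. Each group had 3 biological replicates. The labels give early nuclear cycle 14 as the stage of all of them, a collection of 3 to 4 h in the dark and 15 min of fixation. The series as a whole measured Cic binding under pulses of ERK activity, and neither group described here carries its optogenetic parts.

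Cic is an HMG-box protein that sits on regulatory DNA and represses transcription. When a receptor tyrosine kinase such as Torso or Egfr switches on Ras and the kinase ERK, Cic is phosphorylated and leaves the DNA, and its targets are released. In the early embryo this limits the terminal genes tll and hkb to the poles, and Cic also acts on genes of the dorsoventral axis.

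Some limits of the material apply to every value below. Only the tagged copy of Cic is pulled down, because the other allele of wild type embryos is untagged. The caller pooled the 3 wild type libraries (6994179 tags) and the 3 untagged libraries (5712080 tags), so values of single replicates, their spread and tests across samples cannot be had. The intervals given with read counts are 95% exact Poisson intervals and cover counting error only. All duplicate reads were kept, so reads are not independent molecules. Sequences of the peaks were not analysed here.

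The final list held 22% of the calls. Wild type reads at the summit, that is reads extended to 145 bp that cover the highest base, ran from 48 to 331 in the final list with a median of 96. In the other 365 calls they ran from 29 to 285 with a median of 49. The untagged level at the same place, which MACS2 takes as the highest of local averages in the untagged libraries, had a median of 8.55 reads in the final list and 11 in the other calls. Its range was 6.90 to 22 in the final list and 6.90 to 64.4 in the other calls, and 6.90 is the genome-wide level below which the caller does not go. Final peaks thus had more wild type reads and a lower untagged level at the median, although both ranges overlapped. Fold enrichment, the authors' deposited ratio of the depth-scaled wild type pileup plus 1 to the untagged level plus 1, had a median of 7.19 in the final list and 3.23 in the other calls.

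The list follows a threshold on the fold, so these differences are part of how it was made. Of 468 calls 111 had a fold of at least 5, and all 103 final peaks were among them. Just inside were vlc with a fold of 5.02 (51 wild type reads, untagged level 7.50), a peak annotated to a gene without symbol (FBgn0262327) with 5.05, the ERK phosphatase gene Mkp3 with 5.06 (98 wild type reads, untagged level 15), dan with 5.14 and shot with 5.16. Just outside were calls in CG30089 with 4.997, at CHES-1-like with 4.99 and at lobo with 4.99. The 8 calls above this fold that were left out of the final list lay in rl, which encodes ERK (5 calls, fold 8.48 to 15.2), in Dsor1, which encodes the ERK kinase MEK (folds of 29.2 and 8.91), and in 1 interval on 3R that touches the metallothionein gene MtnA and CG8500, with its summit between them (fold 24.8). No label or header states the filter that removed them.

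**Figure D1:**
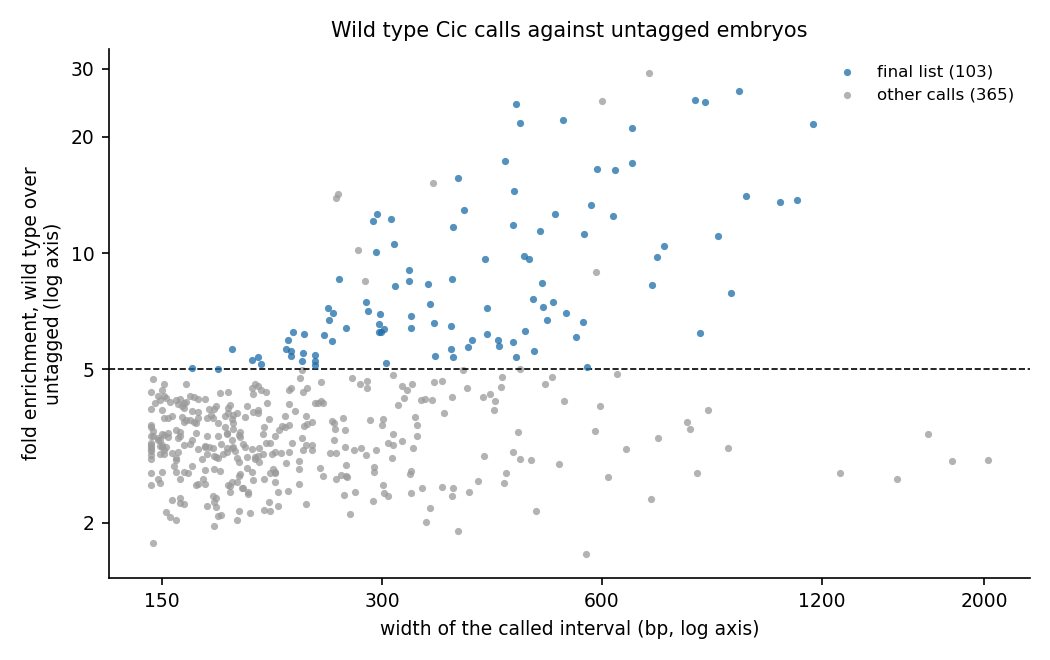
Each point is 1 of the 468 calls of wild type over untagged embryos, the 103 final peaks in blue and the other 365 calls in grey, by the width of the called interval in bp and by fold enrichment, both on log axes. The dashed line is a fold of 5, above which lie all final peaks and 8 other calls, and final peaks reach a width of 1164 bp where the other calls reach 2022 bp.

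Binding was uneven among the final peaks. A fold of at least 10 was found at 32 of them and one of at least 20 at 8, while 28 lay under 6. The 10 summits with most reads held 21.3% of the summed summit reads of all 103. The terminal genes had the highest counts. At hkb, which encodes a zinc-finger repressor of the terminal system, peak 1 (chr3R:4348112-4348940, dm6) had 331 wild type reads (296 to 369) at an untagged level of 10. At tll, which encodes an orphan nuclear receptor of the same system, peak 1 (chr3R:30851662-30852585) had 320 wild type reads (286 to 357) at an untagged level of 9. Setting these counts against the untagged level cannot test binding, because every final peak had a fold of at least 5 over that level. The counts are also wild type reads before depth scaling, so they are not on the scale of the untagged level. The folds, which use the scaled pileup, were 24.7 at hkb peak 1 and 26.2 at tll peak 1, where the median of the final list was 7.19.

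High counts were also found at genes of other systems. The uncharacterized gene CG12986 (chrX:17819364-17820471) had 285 wild type reads (253 to 320), but its untagged level was 16 and its fold therefore 13.8. The Wnt family gene wntD (chr3R:13293257-13293787), whose product restrains the dorsoventral factor Dorsal, had 269 (238 to 303) at 9. Peak 1 of pnt, an ETS activator that works downstream of ERK (chr3R:23314231-23314688), had 251 (221 to 284) at 7.48. The peak annotated to the T-box gene Doc2 of the dorsal ectoderm (chr3L:9028911-9029715), with its summit 10174 bp upstream of the Doc2 start, had 242 (212 to 274) at 6.96. Peak 1 of the GATA factor gene srp (chr3R:15988168-15988827) had 203 (176 to 233) and peak 1 at Rpn12R (chr3L:15039504-15039967) 224 (196 to 255). Of these peaks only CG12986 stood at an untagged level well above the median of the list.

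Atx-1 had the ninth fold of the list, 17.3, with 166 reads (142 to 193) at the genome-wide untagged level (chrX:6822895-6823336). The mammalian counterpart of its product, Ataxin-1, is known to bind mammalian CIC. Its summit lay 59 bp upstream of the annotated start, and its profile had 1 maximum and was 194 bp wide at 0.5 of its height. The gene of Cic itself was also among the members. At cic, peak 1 (chr3R:20291087-20291399) had 87 wild type reads (69.7 to 107) at an untagged level of 7.77, a fold of 8.21. Peak 2 (chr3R:20291932-20292325) had 61 wild type reads (46.7 to 78.4) at an untagged level of 7.87, a fold of 5.73.

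In 8 final peaks the untagged level reached at least 15 reads, while it was under 10 in 75. The highest were tal-2A with 22 (170 wild type reads), CG15480 with 21 (166 wild type reads) and the homeobox gene zen with 20 (169 wild type reads). Their folds of 6.08, 6.21 and 6.62 were in the lower part of the list although their read counts were in the upper part, so the rank of a member depends on whether reads or fold are used. The high untagged level at these places was measured in embryos with no tag, and its part in the wild type counts was not tested.

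Width was read in 2 ways. The called interval ends where the call loses its q threshold, and its median was 381 bp in the final list (95% interval over peaks 329 to 453, range 165 to 1164) and 201 bp in the other calls (range 145 to 2022). The wild type profile, in contrast, gives the coverage in 10 bp windows over 2 kb around each peak. Its half-height width is the full width at 0.5 of the highest window within 200 bp of the centre, which was the highest of the whole profile in 99 of 103. That width had a median of 217 bp (95% interval over peaks 201 to 234, quartiles 188 and 255). It was under 200 bp at 40 peaks, from 200 up to 400 bp at 60 and at least 400 bp at 3. Over the 103 peaks the called width went with the summit reads (Spearman's rho 0.720, Pearson's r 0.714), whereas the profile width hardly did (rho 0.128, r 0.0823). These correlations are across peaks of the same pooled libraries and are descriptions only.

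The widest intervals of the final list were therefore mainly those of strong peaks. They were tll peak 2 with 1164 bp, CG12986 with 1108 bp, peak 1 of the BMP ligand gene dpp with 1052 bp, the leucine-rich tendon protein gene Lrt with 944 bp and tll peak 1 with 924 bp. Their profiles were 329, 245, 274, 276 and 312 bp wide by this measure, all above the median. The narrowest intervals were FBgn0262327 with 165 bp, vlc with 179 bp, the tubulin gene betaTub60D with 187 bp, sty, an antagonist of receptor tyrosine kinase signalling, with 199 bp, and the odorant receptor gene Or67d with 203 bp. Each of these 5 had between 48 and 54 reads at the summit, and their profiles were 169 to 210 bp wide. Of these profiles 4 lay below the lower quartile of 188 bp, and only that of sty was wider. Over all 103 peaks the called width and the profile width went together in part (rho 0.498, r 0.405).

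Among peaks at or above the median central coverage, the broadest profiles were pnt peak 2 with 597 bp, SdhAL with 437 bp, zen with 415 bp, CG6163 with 376 bp and srp peak 2 with 351 bp. The sharpest were CG7029 with 169 bp, wntD with 172 bp, fend peak 1 with 173 bp, CG15480 with 174 bp and pnt peak 1 with 178 bp. The contrast within pnt is plain, since its peaks 1 and 2 lie 1055 bp apart and are among the sharpest and the broadest of these profiles. At pnt peak 2 the profile stayed above 0.5 of its height at the centre for 415 bp towards lower coordinates and for 182 bp towards higher ones. At zen these lengths were 302 and 113 bp, and at SdhAL 354 and 83.5 bp.

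Such lopsided profiles were common but had no common direction. The longer side was at least 2 times the shorter one at 26 peaks, with a median ratio of 1.58 over all. The longer side pointed to higher coordinates at 52 peaks and to lower ones at 51. Half-height widths below the 74 bp of the tags themselves were found at fend peak 2 (35.6 bp) and at Cyt-b5-r (57.1 bp, chr2L:16785757-16785983). At fend peak 2 the value belongs to a spike whose highest window lay 120 bp from the centre, so it is not the width of the profile at its centre. At Cyt-b5-r the highest window had a coverage of 55.9 unextended reads where the extended summit had 60, a ratio of 0.932, while the median ratio over the list was 0.528. Most of the wild type reads of this member therefore cover the same few bases. Duplicates were kept by the caller, and their part in this peak was not tested.

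**Figure D2:**
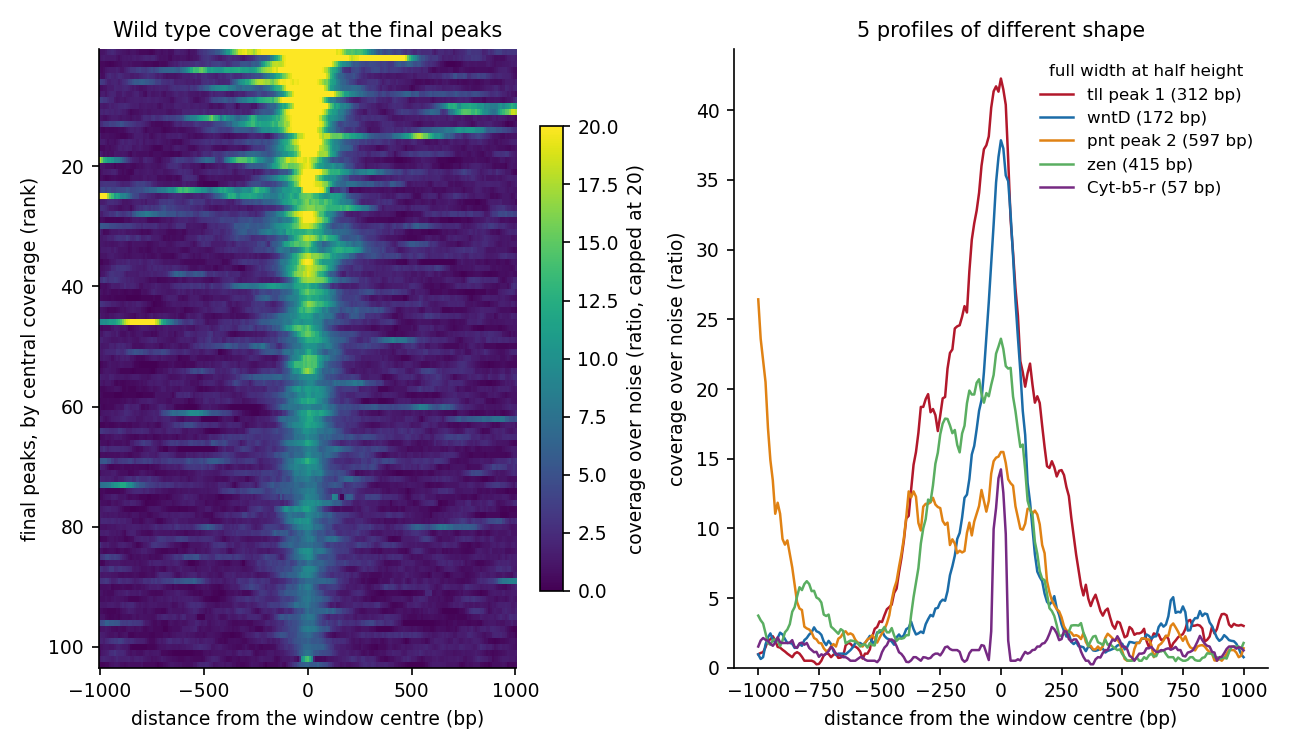
Left, wild type coverage over noise (ratio to 3.93 reads, the mean coverage of the authors' noise peaks, capped at 20) in 10 bp windows within 1000 bp of the window centre, 1 row per final peak, ordered by mean coverage in the central stretch. Right, 5 profiles on the same scale without the cap, with half-height widths of 312 bp (tll peak 1), 172 bp (wntD), 597 bp (pnt peak 2), 415 bp (zen) and 57 bp (Cyt-b5-r), where the rise at the left edge of pnt peak 2 is pnt peak 1.

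The coverage within 250 bp of the centre was at the median 6.22 times the noise level (95% interval 5.66 to 7.38), and it ranged from 2.51 at FBgn0262327 to 26.2 at tll peak 1. At the outer 200 bp of each side it was 1.27 times the noise level at the median, and under 2 times at 83 peaks. After tll peak 1 came hkb peak 1 with 23.9, CG12986 with 19.6, tll peak 2 with 16.8 and wntD with 15.9. The broad peak at zen reached 15.3, more than Doc2 with 15.2, although Doc2 had more reads at its summit. The highest window lay within 10 bp of the centre in 98 profiles. Whether the deposited windows had been placed on the highest point was not tested, and in that case this count would be fixed in advance. It is therefore no measure of peak shape or of summit accuracy.

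A profile was counted as having several maxima where a further one stood out by at least 0.2 of the central height after smoothing over 5 windows. By this measure 43 profiles had 1 maximum, 34 had 2 and 26 had 3 or more, so 60 had several, against 24 at a stricter prominence of the same kind. Profiles with several had fewer reads at the summit than those with 1, with medians of 76 (range 48 to 331) and 132 (range 60 to 320). The part of low coverage in this count was not tested. Of 90 further maxima, 20 lay at another call, 7 of them at another final peak, 13 lay inside the called interval of the peak itself, and 57 lay outside it at no call.

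Some called intervals held a further maximum at the looser setting. At hkb peak 1 a second maximum stood 370 bp from the first at 0.781 of its height. The disco peak had one at 550 bp (0.928), Lrt at 510 bp (0.743), Mkp3 at 150 bp (0.989), Rpn12R peak 2 at 300 bp (0.757) and pnt peak 2 at 360 bp (0.798). The zinc-finger gene salm had one at 240 bp (0.693), tll peak 3 at 200 bp (0.804) and CG17300 at 160 bp (0.673). The promoter peaks of CG15480 and CG16813 had theirs at 610 bp (0.613) and 460 bp (0.560). By contrast tll peak 1, with the largest central coverage, and wntD had a single maximum. No replicate error stands behind these shapes, since 1 combined profile was deposited for each peak.

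Final peaks were far apart as a rule, with a subset in close groups. The median distance from a final summit to the nearest other one was 237 kb (236515 bp), the shortest was 771 bp, and 12 peaks had no other within 1 Mb. Within 2 kb of another final summit lay 14 peaks, within 5 kb 23, within 10 kb 25, within 20 kb 32 and within 100 kb 48. Between 5 and 10 kb the count therefore hardly grew. For all calls the median distance was 15168 bp, and 211 of 468 had another call within 10 kb.

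Joining final peaks within 10 kb gave 11 loci with 25 peaks, of which 9 had a single annotated gene. Peaks in loci were 16 of the 52 peaks at or above the median fold and 9 of the 51 below it, and 6 of the 10 highest folds. The fold of the strongest peak of a locus was 1.43 times (cic) to 4.69 times (tll) that of the weakest.

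Among the terminal genes, tll had 3 peaks over 6198 bp (chr3R:30849340-30856626). Their summits lay 2231 bp upstream (217 reads, 189 to 248, fold 21.6), 208 bp upstream (320 reads, fold 26.2) and 3967 bp downstream (58 reads, 44.04 to 74.98, fold 5.59) of its annotated start. A further weaker call with a fold of 4.57 lay within 10 kb. At hkb there were 2 peaks 1561 bp apart (chr3R:4346449-4348940), with summits 1738 bp upstream (fold 24.7) and 177 bp upstream (206 reads, 179 to 236, fold 16.5). Both genes thus had a promoter peak and a strong upstream peak. At hkb the upstream peak had more reads, and at tll the promoter peak did.

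Genes of the receptor tyrosine kinase and ERK pathway made 3 loci. At aos, which encodes a secreted antagonist of Egfr ligands, the summits lay 495 bp upstream (101 reads, 82.3 to 123) and 2808 bp downstream of the start (68 reads, 52.8 to 86.2), with 3 weaker calls of up to 4.65-fold within 10 kb of the locus. At pnt they lay 119 bp and 1174 bp upstream of the annotated start, and peak 3 of this gene stood 13137 bp from peak 1 with 58 reads (44.04 to 74.98) and a fold of 5.39. At cic they lay 1815 and 876 bp upstream of the annotated start. Both cic peaks, and pnt peaks 2 and 3, were nevertheless classed as lying in an intron of the same gene. The first pnt peak had more than 2 times the reads of the second (251 and 110), beyond counting error, while the cic counts of 87 and 61 had overlapping intervals.

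At dpp the summits lay 1831 bp downstream (198 reads, 171 to 228, fold 13.6) and 1133 bp upstream (77 reads, 60.8 to 96.2, fold 6.39) of the annotated start (chr2L:2453462-2457393). Both dpp peaks were classed as lying in an intron of dpp. At srp, a GATA factor gene of the endoderm and blood lineages, peaks of 203 and 81 reads stood 771 bp apart, the closest pair of the list. Among pairs joined within 10 kb, that of the pair-rule gene prd was the widest, 6433 bp, with 92 reads (74.2 to 113) and 65 reads (50.2 to 82.8), whose intervals overlap. At fend the pair lay 1455 bp apart, with 167 and 71 reads. The narrow spike of peak 2 stood off the centre, and a smoothed maximum 1.26 times as high lay 110 bp from it, on the side of the centre.

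The neuroectoderm gene ind shared a locus with both peaks annotated to Rpn12R, a gene related to a proteasome subunit (chr3L:15039504-15045495). The Rpn12R peaks had 224 and 152 reads (196 to 255 and 129 to 178), and the ind peak, 1334 bp upstream of the ind start and 4451 bp from the nearest of the others, had 122 (101 to 146). All 3 intervals lie in an intron of Sytbeta, a synaptotagmin gene. The last locus held the uncharacterized genes CG15480, CG16813 and CG16815, each with a promoter peak, over 3869 bp of 2L (chr2L:13225083-13229811). The counts there were 166, 189 and 67, and the untagged levels 21, 13 and 9.76.

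**Figure D3:**
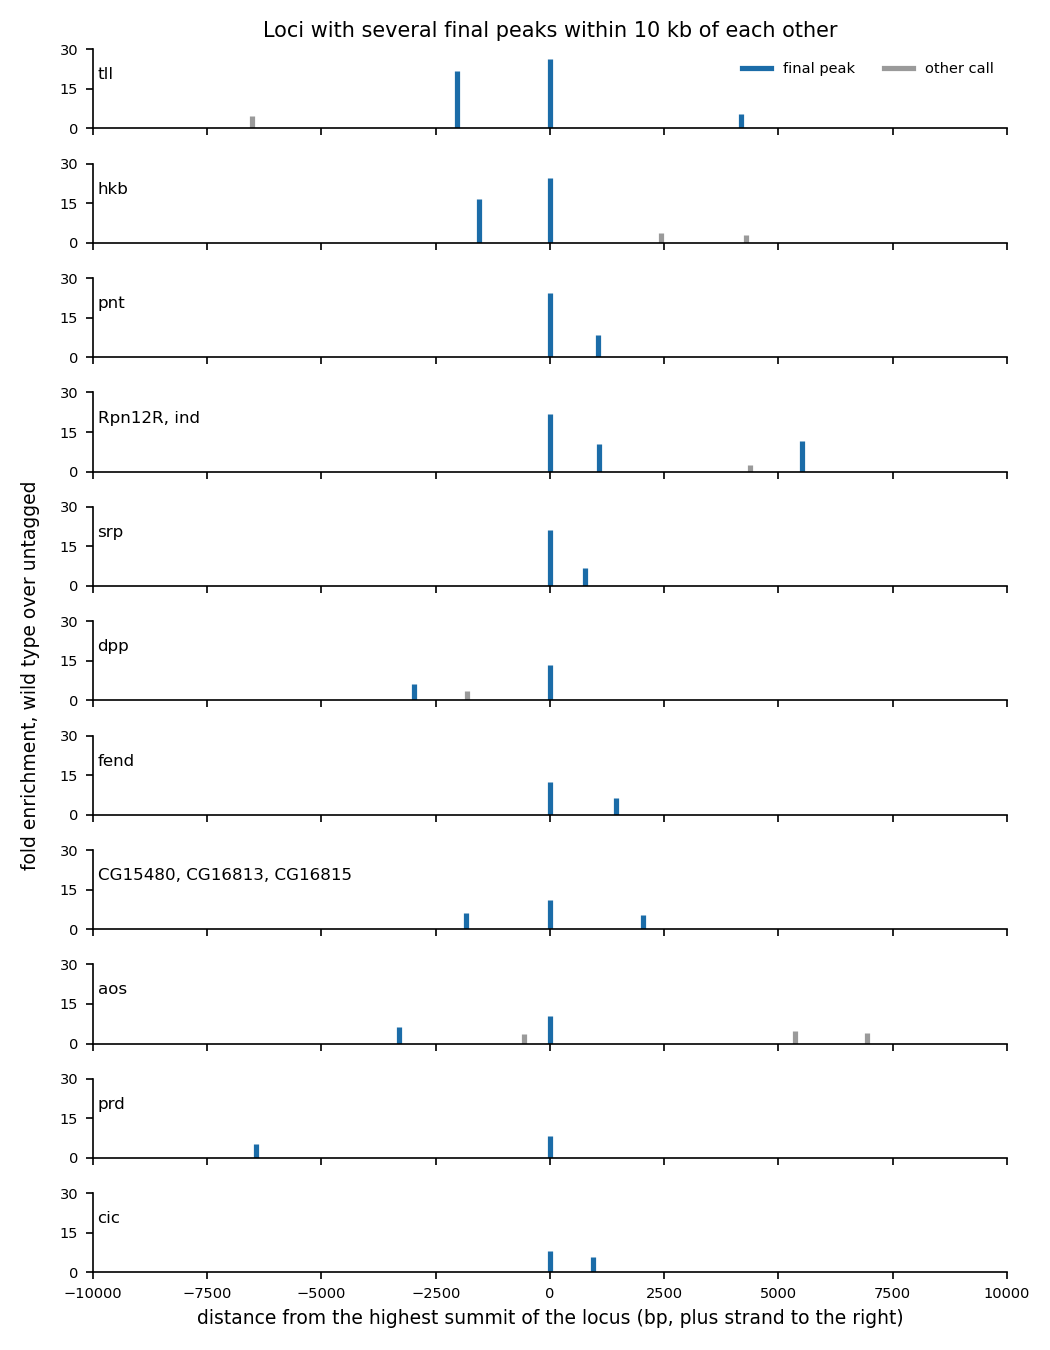
The 11 loci of final peaks within 10 kb of each other, from the highest fold at the top, with each final peak (blue) and every other call (grey) drawn at its summit by distance from the highest summit of the locus in bp and by fold enrichment. The highest peaks range from 26.2 at tll to 8.21 at cic, and other calls stand near the peaks of tll, hkb, Rpn12R and ind, dpp and aos.

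At 34 of the 103 final peaks at least 1 of the other calls lay within 10 kb, among them 23 of the 78 peaks outside these loci. Of the 34, 20 were at or above the median fold and 14 below it. The transcription cofactor gene tna had 4 such neighbours, and CG42807 and emc, which encodes a helix-loop-helix protein without DNA binding, had 3 each. Groups of at least 4 calls with gaps of at most 5 kb numbered 11, and 6 of them held a final peak. The median untagged levels of those 6 were 7.45 (tll), 8.77 (hkb), 9.31 (Rpn12R and ind), 9.60 (emc), 12.001 (tna) and 15.03 (CG42807). In the 5 groups without a final peak the medians were 8.95 (near an end of X), 18.8 (S6KL and bnb), 20.2 (Nrt), 22 (wech, 7 calls) and 55.03 (CG15125).

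The 8 calls outside the final list that were at least 800 bp long had an untagged level of 14.1 to 26.97 and folds of 2.61 to 3.92. They included 2 calls of 2022 and 1805 bp at slam, a gene needed for cellularization, 1 of 1673 bp at the cell adhesion gene Nrt and 1 of 810 bp at Z600, a gene expressed at the start of zygotic transcription. Of the final peaks 10 were at least 800 bp long. Their untagged levels ran from 6.90 at disco to 21 at CG15480, with 16 at CG12986 and 13 at CG16813, so the ranges of wide final peaks and wide other calls overlap.

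Relative to genes, more summits lay just upstream of the annotated start than just downstream of it. Each peak was annotated to its nearest start, so closeness to a start is partly built in. No share for the other calls or for the genome was set beside these counts. Gene coordinates were deposited for 89 of the 103 peaks. Of their summits 54 lay upstream and 35 downstream of the start, 20 within 500 bp upstream and 4 within 500 bp downstream. Upstream here refers to the annotated start only, and some of these summits, such as those at cic, lay in an intron of the same gene. In the 27 peaks of the promoter class the summit was upstream at 23, with a median of 189 bp upstream. Over all peaks the interval touched the start (deposited distance of 0 bp) in 20, lay within 1000 bp of it in 39 and within 3000 bp in 67, and was more than 10 kb away in 7. Of the 20 that touched the start, 5 had no gene coordinates and are missing from the counts of upstream and downstream summits.

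Strength overlapped between the classes of position. Summit reads had medians of 101 in promoter peaks (95% interval over peaks 83 to 170, n = 27), 89 in intronic peaks (68 to 114, n = 41) and 119 in distal intergenic peaks (64 to 217, n = 14), and these intervals overlap. The profile widths had medians of 228, 228 and 220 bp, and the folds medians of 7.46, 6.70 and 7.30. A further 14 peaks, among them srp peak 1 and fkh, had no class and are not in this comparison. Their medians were 97 reads, a profile width of 195 bp and a fold of 8.76 (range 5.05 to 21.1). Doc2 and hkb peak 1, with folds of 24.95 and 24.7, were intergenic, and Rpn12R peak 1 with 21.7 was intronic.

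**Figure D4:**
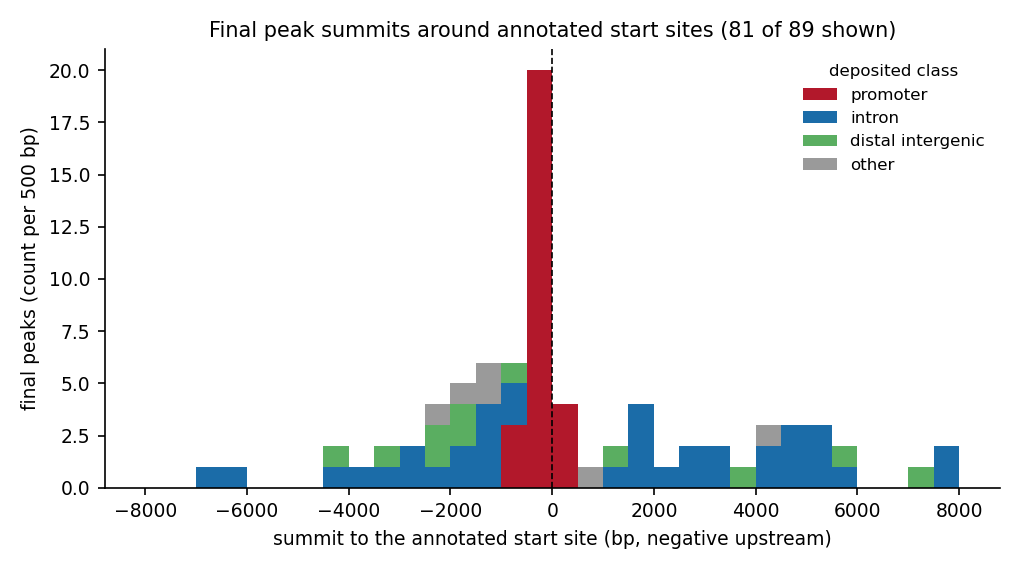
Count of final peaks per 500 bp of signed distance from the wild type summit to the annotated start site, upstream to the left, coloured by the authors' class, for 81 of the 89 peaks with gene coordinates (8 lie beyond 8000 bp). The bin just upstream of the start holds 20 peaks and the one just downstream 4.

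Of 41 intronic peaks 30 lay in an intron of the gene they were annotated to, 15 of these in the first one, and 11 touched an intron assigned to another gene. Besides the Sytbeta intron, the peak of brk, which encodes a repressor of BMP target genes, lay in CG1677 with 116 reads (95.9 to 139, fold 12.1). The peak annotated to CG9220 lay in sog, the BMP antagonist gene, with 131 reads (110 to 155, fold 9.82), 14557 bp from the CG9220 start. The peak of emc lay in hng3, that of CG32026 in dally, that of dan in lobo and that of Cyt-b5-r in the myosin gene Mhc. The zen peak overlapped bcd. Annotation to the nearest start thus names CG9220 where the peak is inside sog, and counts by gene depend on that rule.

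The 88 named genes of the final list were all protein-coding in the RefSeq table, where they are 0.631% of 13946 such genes. Their median length was 7732.5 bp, and that of all protein-coding genes 2161 bp. No name beyond a CG number and the word uncharacterized stood in the annotation for 16 of them. Relative to gene number, 3R had most final peaks, with 10.01 per 1000 protein-coding genes, before 3L with 9.13, 2L with 6.40, X with 5.92 and 2R with 4.91. Chromosome 4 had 8 calls and no final peak, and its highest fold was 3.74.

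Target genes were grouped by 16 lists that share some genes. The share to set beside the count of every list is the 0.631% of all protein-coding genes that had a final peak. Genes with a final peak were longer at the median (7732.5 bp against 2161 bp), and the counts by list do not account for length. Of 232 listed genes found in the RefSeq table, 38 were annotated to a final peak. Their 49 peaks had a median fold of 8.26 and the other 54 peaks one of 6.79, with ranges of 5.06 to 26.2 and 5.02 to 21.7. Listed genes held 8 of the 10 highest folds, 13 of the 20 highest and 8 of the 20 lowest. The lists were made with earlier results of these data known. These comparisons are therefore descriptions only and give no independent support for any class of targets.

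Of the terminal and gap genes 4 of 13 had a final peak, namely tll, hkb, the forkhead gene fkh and the POU gene pdm2, with a median fold of 17.1 over 7 peaks. The fkh peak (chr3R:28586091-28586750) had 176 reads (151 to 204) and the pdm2 peak 55 (41.4 to 71.6), so the list holds strong and weak peaks. The trunk gap gene kni had only a weaker call, with a fold of 3.15. The head list had hbn, a homeobox gene, alone of 14 genes. Its peak had 171 reads (146 to 199) at an untagged level of 8, a fold of 15.6.

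Of the dorsal ectoderm and BMP genes 9 of 26 had a final peak (34.6%, where 0.631% of all protein-coding genes did), with 10 peaks and a median fold of 11.8. They were the ligand gene dpp, the protease gene tld, whose product frees BMP ligands, the BMP response factor genes shn and brk, the homeobox genes zen and zen2, the GATA factor gene pnr, and the T-box genes Doc2 and Doc3. The folds were 13.6 and 6.39 at dpp, 12.9 at zen2, 12.6 at shn, 12.1 at brk, 11.4 at tld, 8.32 at pnr, 6.62 at zen and 6.57 at Doc3. Doc2 stood apart with 24.95, at a summit 10174 bp upstream of its start. The peaks of zen and zen2 lay 10826 bp apart and those of Doc2 and Doc3 26709 bp apart, beyond the distance used for loci.

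Ventral and mesoderm genes had 3 of 13, namely wntD with a fold of 22.1, zfh1, a zinc-finger homeobox gene, with 9.66, and the mesoderm repressor gene sna with 7.19. At zfh1 and sna there were 188 and 122 wild type reads at untagged levels of 15 and 13. The neuroectoderm list had ind alone of 7. Of the known Cic targets, a list made from earlier work on Cic, 5 of 10 genes had 11 peaks, with a median fold of 11.7. The others, mirr, pip, vn, bs and Ets21C, had no weaker call within 2 kb either. The list did not take into account the tissue or stage in which a target was known.

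In the receptor tyrosine kinase and ERK pathway 10 of 38 genes had 15 peaks, with a median fold of 6.48, below the 7.19 of the whole list. Receptors were Egfr, with 180 reads (155 to 208) and a fold of 16.4 in its intron (chr2R:21523540-21524163), and the insulin receptor gene InR, with 132 and 94 reads at peaks 16747 bp apart. On the ligand side were the FGF gene ths with 188 reads (162 to 217) and S, which encodes the Star protein of Egfr ligand transport, with 69 (53.7 to 87.3). The nuclear end had pnt and cic. Inhibitors of the pathway numbered 4, with aos, sty (50 reads, 37.1 to 65.9), RasGAP1, which switches Ras off (93 reads, 75.1 to 114), and Mkp3 (98 reads, 79.6 to 119). Except for Egfr, pnt peak 1 and aos peak 1, all peaks of this list had folds under 10.

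The gut list had srp, fkh and hkb of 10 genes. Of 23 pair-rule and segment polarity genes prd and salm had a peak, with a median fold of 5.41 over 3 peaks, the lowest of all lists with a peak. Sex determination had the X-counting gene sisA (fold 7.46) and the JAK/STAT ligand gene upd1 (10.05) of 10. Neurogenic and neural genes had Tom (6.605), a Notch pathway inhibitor of the Bearded family, and pros (5.65) of 24. Cell shape and adhesion genes had Shroom (7.49) and trn (5.52) of 19, Hox genes abd-A (7.61) of 8 and ETS factors pnt of 9. Of 19 cell cycle and 14 housekeeping genes none had a final peak, a share near the 0.631% of all protein-coding genes. At that share lists this short would mostly hold none, so the absence says little about these genes. It also depends on which genes were listed, since translation genes outside the lists had final peaks. A weaker call lay within 2 kb of 3 of the cell cycle genes.

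**Figure D5:**
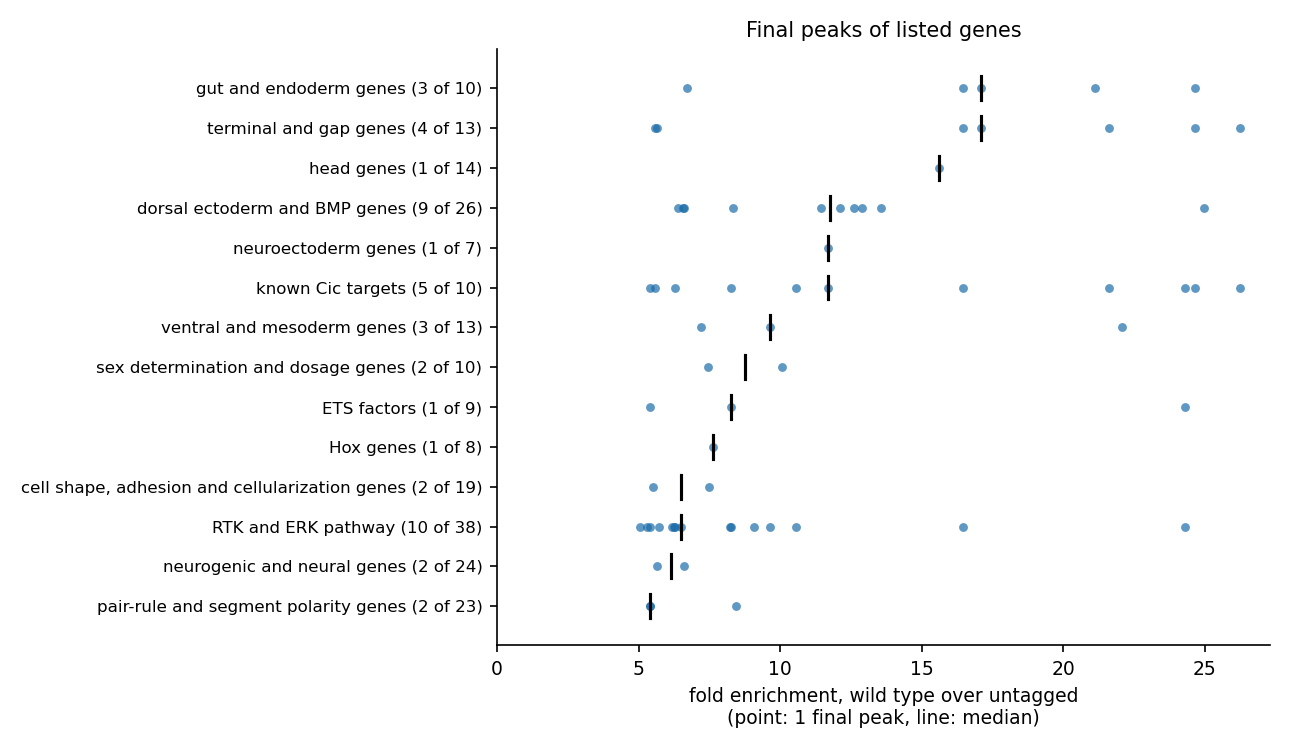
Fold enrichment of wild type over untagged embryos at each final peak of a listed gene (point) with the median of the list (line), for the 14 lists with a final peak, ordered by median. Numbers after a list give genes with a final peak of genes matched, and medians run from 17.1 in the gut and the terminal lists to 5.41 in the pair-rule and segment polarity list.

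Counting each gene whose body lies within 10 kb of a final summit raises the number of listed genes to 45, where 1.66% of all protein-coding genes meet that rule. The 7 genes so added are neighbours of members already described. The T-box gene byn of the hindgut, a terminal gene, lies 1894 bp from the SdhAL summit, sog holds the CG9220 summit, and tok lies 149 bp from the tld summit. Next to zen lies bcd (173 bp) and next to zen2 the Hox gene pb (2780 bp), and Brd and Ocho are neighbours of Tom (4522 and 6703 bp). Annotation by nearest start thus gives some patterning genes no peak although one lies beside them.

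A further 35 listed genes had no annotated final peak but a call outside the final list within 2 kb of the gene body, which 2.71% of all protein-coding genes had. Apart from Dsor1 and rl, described above, these calls ran from 2.25-fold at bnk and 2.26-fold at odd up to 4.65-fold at ush, a cofactor of GATA factors. They included the Egfr ligand gene spi (4.59), the ETS repressor gene aop (4.58), the cell cycle gene E2f1 (4.41), so (4.23), ptc (4.18), the midline gene sim (4.15), CycB (4.09), ems (4.05), hh (4.02) and sog (3.23). For ush (49 wild type reads) and spi (55) the reads at the summit were in the range of the weakest final peaks.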

How the data were processed

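Peaks were called by the authors with MACS 2.1.2 on pooled libraries, wild type ChIP over untagged ChIP, with a q threshold of 0.01, no fragment model, an extension of 145 bp and all duplicates kept, per the file headers. The submitters' processing notes also name Trim Galore, BWA 0.7.17-r1188, ChIPseeker and SAMtools, with dm6 as the build. The authors deposited for each call the pileup signal at the summit, the fold enrichment (a ratio), and −log10 p and q values, and for the final list also a peak score of 10 times −log10 q. The deposited wild type profiles are z-scores (a score relative to noise peaks) in 201 windows of 10 bp for 103 peaks, replicates combined.

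Reads at the summit were recovered as pileup divided by 0.817, the ratio of the tag totals, and were whole within 0.01. The untagged level is (pileup + 1) / fold − 1. Profile coverage was recovered from the steps of 0.0356 in the z-scores, and lowest values were read as no coverage. The columns of the profiles carry no names. Taken as ordered like the final list, 6 of 6 pairs of overlapping windows held equal values at the shift that matched best. That shift differed from the distance between the called summits by up to 51 bp, so the profile centre is not always the called summit. Distances to starts used the deposited gene coordinates, and gene bodies came from the RefSeq table (Release 6), to which all 88 names were matched, Shroom and RasGAP1 by gene ID. Code was checked on simulated data. Python 3.11.15, numpy 2.4.6, pandas 2.3.3, scipy 1.17.1 and matplotlib 3.10.9 were used. No test across samples was made because replicates were pooled, and nothing says how the single libraries differ.

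Members, lists and settings were chosen with earlier results of these data known. Named genes were the listed genes with a final peak, the 10 highest and 5 lowest folds, genes and loci with several peaks, and the 5 widest, narrowest, broadest and sharpest members. Other genes were named after their values were seen. A search for Cic sequence motifs was planned and not made, since no genome sequence was used here. In the header each of 3 run folders holds 1 wild type and 1 untagged library. The names of the 3 untagged libraries there carry dates of their own, 2 different ones, and all 3 are earlier than the date of the run folder. What these dates stand for is not known.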

Additional observations from a re-analysis of the deposited data

How the results depend on the processing

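The counts of final peaks among all calls, of calls with a fold of at least 5, of final peaks with a neighbour, of listed genes with a peak and of genes with several peaks stayed within 1.5 times their value under each alternative run, the last of which, loci in place of genes, was chosen after seeing the data (11 and 11). Neighbours within 10 kb numbered 25, within 5 kb 23 and within 20 kb 32. The median width of all calls was 253.5 bp at a −log10 q of at least 5 and 225.5 bp otherwise. The profile width of 217 bp became 189 bp above the outer windows and 242 bp with the height averaged over 11 windows. Profiles with several maxima numbered 60, against 24 at a stricter prominence and 67 without smoothing. Central coverage of 6.22 times noise was 9.73 within 100 bp and 12.8 at the maximum. Peaks near a start numbered 39 within 1000 bp and 67 within 3000 bp. The motif search and the nearest start from another table (no strand given) were not run. No paired analysis was possible because the replicates were pooled before peaks were called and profiles made. Leaving out single replicates was not possible for the same reason, and at the lowest final summit, with 48 reads, counting error alone spans 35.4 to 63.6.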

Other observations

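By the authors' annotation, 54 of the 103 final peaks were of genes on no list. That count includes the CG9220 peak, which lies inside the listed gene sog, and the SdhAL peak beside the listed gene byn. The members below were chosen after their values were seen. Genes of signalling and transcription were among them. The gene Nf1, which like RasGAP1 encodes a protein that switches Ras off, had 99 wild type reads (80.5 to 121) at an untagged level of 8.55, with the summit 498 bp downstream of its start. Sox21b, an HMG-box gene as cic is, had 98 reads (79.6 to 119) at 8.70. The nuclear receptor gene Eip75B had 89 (71.5 to 110) in an intron 10788 bp downstream of its start, and apt had 162 (138 to 189) at 8.99.

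Among genes of adhesion and the cytoskeleton, folds were 14.1 at Lrt, 5.91 at kirre, 5.46 at cno, 5.24 at CadN and 5.16 at shot. Genes of translation outside the housekeeping list also had final peaks. They were eIF5B with a fold of 12.6 (151 reads, 128 to 177), eIF4A with 6.40 and RpS30 with 5.96. The eIF5B summit lay 7539 bp from the annotated start and 32550 bp from the summit at sty, the nearest final peak, and the RpS30 peak was classed as downstream of the gene. Which genes any of these peaks acts on was not tested.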
